A study of Mus musculus with 14 samples.

Results

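The comparison described here sets the mouse tumour cell line CT26 against the mouse tumour cell line E0771 after the control agonist, before any RIG-I stimulus. It holds 5 of the 14 libraries of the series, chosen by their labels alone: the 3 CT26 and the 2 E0771 libraries that received the control agonist. CT26 is a colorectal carcinoma line from BALB/c mice, and E0771 is a mammary cancer line that arose spontaneously in a C57BL/6 mouse. Both were grown in RPMI medium with fetal bovine serum, plated at 100000 cells per well and given 0.5 ug/ml of the control agonist for 24 h. The study asks what RIG-I, the cytosolic sensor of viral RNA, does when it is activated inside tumour cells. The same lines after 0.5 ug/ml of the RIG-I agonist (3 CT26 and 2 E0771 libraries) gave the same line contrast in other libraries. A C57BL/6 colon adenocarcinoma line, MC38, had 2 control agonist libraries, grown in DMEM, which are given only as levels beside the others. RNA was poly(A)-selected and sequenced as stranded libraries. No untreated cells were analysed here.

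Each line is 1 tumour of 1 strain and 1 organ. Organ of origin, mouse strain, the set of libraries (the names of the E0771 and MC38 columns share a prefix that the CT26 columns lack) and sequencing depth all change together between CT26 and E0771 and cannot be told apart. MC38 shares strain and column prefix with E0771 and organ with CT26. The labels do not say that replicates came from separate cultures, so p-values refer only to how far these libraries varied, a spread that may be technical.

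Tumour lines kept in culture often lose part of the programme of their tissue, and the genes that mark epithelial cells (keratins, E-cadherin, EpCAM), mesenchymal cells (vimentin, N-cadherin, collagens) and body position (HOX genes) describe where a line stands. A second axis is the interferon pathway. RNA sensors such as RIG-I signal through MAVS to IRF3 and IRF7, secreted interferon then acts through its receptor, JAK kinases, STAT proteins and IRF9, and that complex binds the interferon-stimulated response element in the promoters of antiviral genes. Many cells keep a low level of these antiviral genes without infection, which sets the amount of sensors and MHC class I present before a stimulus.

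CT26 libraries held 35794122 to 40563960 counts and E0771 libraries 12413267 and 12801687, so no count in any library allows a level of up to 0.0275 CPM (counts scaled to library size) over the CT26 group and 0.117 CPM over the E0771 group. This floor of 3 counts, and the exact intervals given for ratios of low counts, cover counting error only. Levels are CPM scaled for composition (TMM). Log2 fold changes are CT26 over E0771, with standard error (SE), from edgeR's quasi-likelihood test, and a gene was called at a Benjamini-Hochberg adjusted p under 0.05 over the 14262 genes tested. At that threshold 5119 genes (35.9% of those tested) were higher in CT26 and 4621 (32.4%) were lower, or 21.8% and 16.1% with at least a 2-fold difference. Genes called in either direction thus made up 68.3%, and each count of list members below stands beside these shares. The libraries of the 2 lines did not overlap for 79.9% of all genes tested. The median log2 fold change over all of them was 0.06. A gene said to be higher or lower without its own p was called. Where a gene with no count in 1 line has its fold given, this is a lower bound computed against the floor.

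The 2 E0771 control libraries differed from each other. A chi-square of counts per degree of freedom was 13.1 to 28.9 between CT26 libraries and 40.9 between the E0771 libraries. At equal relative spread this value grows with depth, and the E0771 libraries were shallower, so it understates their excess. The fit estimated 1 spread per gene over both lines, so an SE does not show the E0771 spread separately. Mitochondrially encoded genes summed to 25440 to 31019 CPM in CT26, 27240 CPM in E0771 library 1 and 57765 CPM in E0771 library 2, and all 13 were higher in E0771 library 2. E0771 library 1 was the higher of the pair for 24 of 25 cholesterol synthesis genes, 49 of 65 antiviral genes, 15 of 19 interferon-inducible GTPase genes and 24 of 29 MHC class I genes, against 46.9% of all genes tested. Where leaving out 1 library moved a count of calls in a list by over 1.5 times, the count without it follows the main one.

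**Figure D1:**
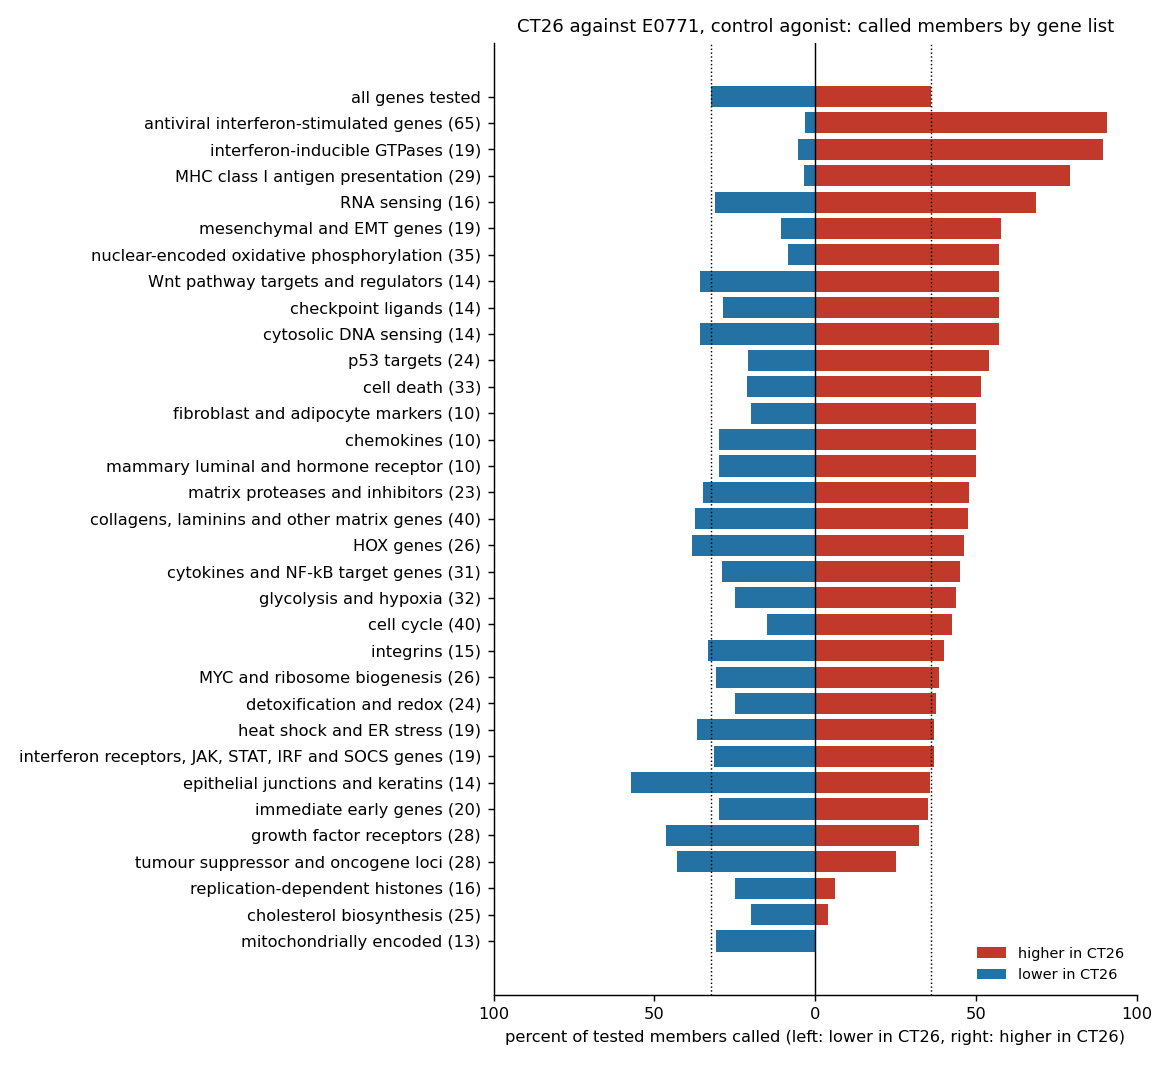
Percent of the tested members of each gene list that were called higher in CT26 (right, red) or lower in CT26 (left, blue) against E0771 with control agonist, for the lists with at least 10 tested members (number in brackets). Dotted lines mark the shares over all genes tested, 35.9% higher and 32.4% lower; the antiviral, GTPase and MHC class I lists lie farthest to the right.

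Several defining epithelial genes were at or near 0 in both lines, and others were present in only 1 of them. In bulk cultures, fewer cells with a gene and less RNA per cell cannot be told apart. Epcam, the gene of the epithelial adhesion protein EpCAM, had no count in any of the 5 libraries, and Cdh1, the E-cadherin gene, was at 0.0263 to 0.0291 CPM in CT26 and 0.302 and 0.561 CPM in E0771. Cdx2, the homeobox gene that defines intestinal epithelium, was at 0.407, 0.263 and 0.136 CPM in the CT26 libraries and had no count in E0771. Of 25 intestinal genes only 5 passed the filter on low counts, 3 of them higher in CT26 and 1 lower. The mammary markers Pgr (progesterone receptor) and Krt14 (basal keratin) had no count in E0771, and the luminal regulator gene Gata3 stood at 0.151 and 0.401 CPM in E0771. Pgr had no count in CT26 either. Each line was thus at or near 0 for these defining markers of its own labelled organ.

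Among the few intestinal genes measured, Krt20, a keratin of differentiated gut epithelium, had 18.9, 19.3 and 19.7 CPM in CT26 and 0 and 0.0802 CPM in E0771. The E0771 libraries held 1 read together, and the ratio CT26 over E0771 was 497 with an exact 95% interval of 89.1 to 19600. Cdh17, the LI-cadherin gene, was at 1.63, 1.89 and 1.83 CPM in CT26 and 0.226 and 0.0802 CPM in E0771 (log2 3.45, SE 0.52, adjusted p = 0.000205). The chloride transporter gene Slc26a3 was the reverse, at 0 to 0.0872 CPM in CT26 and 5.66 and 5.37 CPM in E0771.

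Some genes associated with mammary epithelium were higher in the colorectal line. Esr1, the estrogen receptor gene, had 16, 13.1 and 15.4 CPM in CT26, 0.905 and 1.52 CPM in E0771 and 6.82 and 7.29 CPM in MC38 (log2 3.58 for CT26 over E0771, SE 0.25, adjusted p = 6.15e-07). Even the milk protein gene Csn3 was higher in CT26, with 26.8, 29.2 and 35.4 CPM against 0 and 0.0802 CPM in E0771. The CT26 libraries lay above both E0771 libraries for both genes. In the other direction, Tbx3, a T-box gene of the mammary lineage, had no count in CT26 and 47 and 34.5 CPM in E0771, at least 1480-fold lower in CT26 (adjusted p = 1.05e-07). Erbb2 was at 27.8, 27.1 and 22.2 CPM in CT26 and 42.5 and 49.8 CPM in E0771 (log2 -0.87, adjusted p = 0.000209). Over the 10 luminal genes tested, 5 were higher in CT26 and 3 lower. Among basal genes, Acta2 (smooth muscle actin) had 0.116, 0.21 and 0.191 CPM in CT26 and 40.5 and 16.8 CPM in E0771 (log2 -7.36, SE 0.52), while Trp63, the p63 gene, had 0.814, 1.58 and 1.17 CPM in CT26 and no count in E0771.

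Keratins 8 and 18, which pair to form the filaments of simple epithelia, were split between the lines. Krt8 (ENSMUSG00000049382.10; GRCm38 chromosome 15, 101996698 to 102004482, minus strand) had 0.291, 0.21 and 0.136 CPM in CT26, 269 and 217 CPM in E0771 and 0.189 and 0.376 CPM in MC38 (log2 -10.17 for CT26 over E0771, SE 0.21, adjusted p = 4.29e-10). Its partner Krt18 (chromosome 15, 102028180 to 102032027, plus strand) had 21.2, 26.4 and 24.1 CPM in CT26 and no count in E0771 or MC38, at least 205-fold higher in CT26 than in E0771 (adjusted p = 4.16e-08). Each line carried 1 member of the pair and little or none of the other. Of 14 epithelial junction and keratin genes tested, 5 were higher in CT26 and 8 lower. Cldn6, the gene of an embryonic claudin, had 88.2, 100.2 and 96.6 CPM in CT26 and no count in E0771. The epithelial regulator Grhl1 was also higher, with 3.23, 2.65 and 2.78 CPM in CT26 and none in E0771 (at least 24.8-fold). In contrast, the tight junction gene Ocln, the desmosome genes Pkp2, Pkp3 and Jup and the related regulator Grhl2 were lower in CT26 (log2 -5.88, -4.58, -2.20, -1.40 and -1.26).

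Vim, the gene of the mesenchymal filament protein vimentin, was high in both lines, at 3745, 3778 and 3664 CPM in CT26 and 2997 and 2777 CPM in E0771. The CT26 libraries all lay above the E0771 libraries, but the difference was not called (log2 0.34, SE 0.14, adjusted p = 0.0582) except under 9 of the 17 alternative settings (adjusted p 4.99e-05 to 0.0473). Of 19 mesenchymal genes tested, 11 were higher in CT26, 2 lower and 6 not called, or 10 higher and 4 lower without E0771 replicate 1. Cdh2, the N-cadherin gene, had 99.2, 89.2 and 87.7 CPM in CT26 and none in E0771, at least 789-fold higher. Snai2, a repressor of E-cadherin, had 23.2, 22.3 and 18.8 CPM in CT26 and 0.679 and 0.24 CPM in E0771 (log2 5.48, adjusted p = 1.11e-07), and the matrix proteoglycan gene Dcn had 4.04, 4.86 and 6.22 CPM in CT26 and no count in E0771. Pdgfra, a growth factor receptor of mesenchymal cells, was the main exception, at 6.19, 6.44 and 7.2 CPM in CT26 and 99.9 and 124 CPM in E0771 (log2 -4.11, SE 0.13, adjusted p = 2.34e-09). The regulators Snai1, Twist2 and Zeb2 were not called (log2 -0.22, 0.21 and 0.11).

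**Figure D2:**
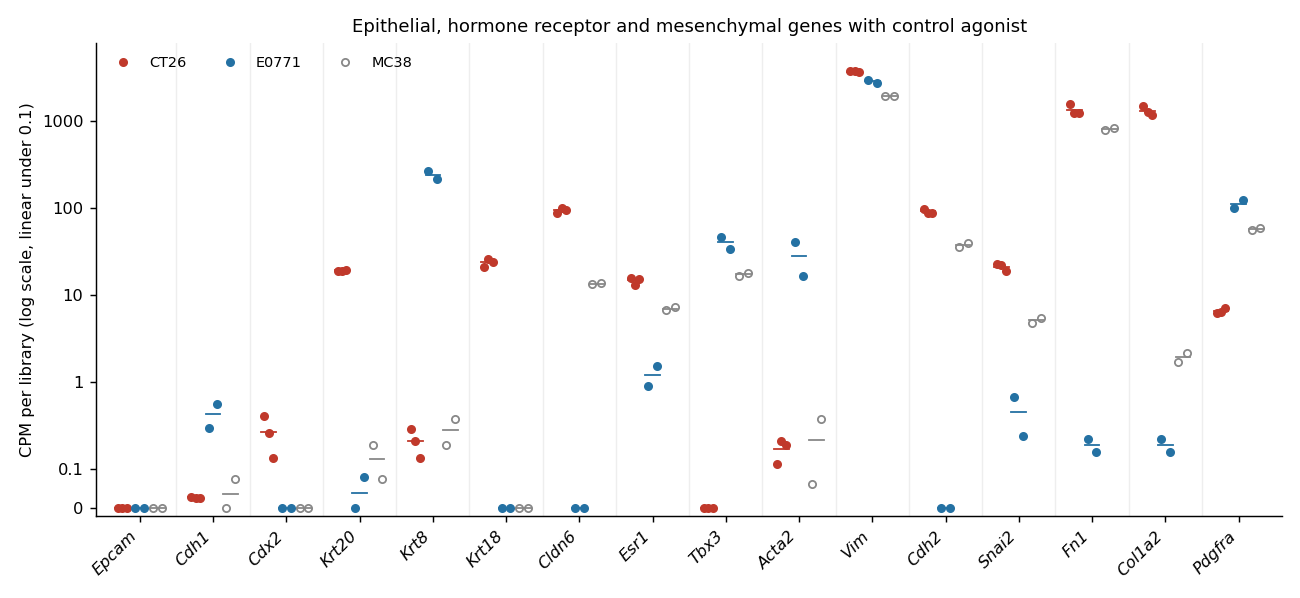
Levels of epithelial, hormone receptor and mesenchymal genes in every control agonist library (CPM, log scale, linear under 0.1; points are libraries, bars their means; CT26 red, E0771 blue, MC38 open grey). Epcam is at 0 throughout, Krt8 and Krt18 are split between the lines, and Fn1 and Col1a2 lie above 1000 CPM in CT26 and under 1 CPM in E0771.

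Many genes were present in 1 line and without a count in the other. Of the genes called higher in CT26, 559 had no count in either E0771 library, and 132 of these reached 10 CPM in CT26; of those called lower, 130 had no count in any CT26 library, and 42 reached 10 CPM in E0771. CT26 was sequenced more deeply, so more genes can be detected there, and the counts at 10 CPM are less exposed to this. Among protein-coding genes at 10 CPM or more, 102 were present in CT26 and at 0 in E0771, and 74 of these reached 1 CPM in MC38. In the other direction 41 were present in E0771 and at 0 in CT26, and 24 of them reached 1 CPM in MC38.

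The 10 protein-coding genes with the largest differences upward in CT26 all had no count in E0771. Vldlr, a lipoprotein receptor gene (chromosome 19, 27216484 to 27254231, plus strand), had 283, 258 and 279.7 CPM in CT26 and 64.7 and 69.1 CPM in MC38, at least 2350-fold higher in CT26 than in E0771 (adjusted p = 8.95e-10). Foxf1, a forkhead factor of gut and lung mesenchyme, had 175, 152 and 140.4 CPM in CT26 (at least 1340-fold), and Arsb, a lysosomal arylsulfatase gene, 109, 99.2 and 93.1 CPM in CT26 (at least 860-fold) and 156 and 160.4 CPM in MC38. Esm1, which encodes the proteoglycan endocan, had 201, 175 and 214 CPM in CT26, and Slit3, a guidance ligand gene, 130.3, 114 and 101 CPM, with neither counted in E0771 or MC38. The remaining 5 were Gm10184, Rpl39l, Ifi202b, Itgbl1 and Cdh26, at least 3410-fold, 1990-fold, 1530-fold, 1010-fold and 839-fold higher. Mean levels of these 5 in MC38 were 0, 0, 0.0376, 0.189 and 8.08 CPM, and that of Foxf1 was 21.8 CPM. Rpl39l shares sequence with Rpl39, and Ifi202b belongs to the Ifi200 family, so reads of relatives could be split among them.

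Downward, 9 of the 10 genes were Esx1, Crmp1, 4930550L24Rik, Ass1, Xlr3c, Nptx1, Galm, Rin3 and Arsi. Ass1, the argininosuccinate synthase gene needed to make arginine (chromosome 2, 31470207 to 31520672, plus strand), had 0, 0.0263 and 0 CPM in CT26, 245 and 240.0 CPM in E0771 and 17.4 and 14.2 CPM in MC38 (adjusted p = 3.25e-10). CT26 held 1 read together, and the ratio E0771 over CT26 was 26500 (exact 95% interval 4750 to 1050000). Esx1, an X-linked homeobox gene of placenta and germ cells, had 0, 0.0263 and 0 CPM in CT26 and 613 and 479.9 CPM in E0771. Crmp1, a neuronal collapsin response mediator gene, had 190.2 and 132 CPM in E0771 and was at least 5860-fold lower in CT26, and the neuronal pentraxin gene Nptx1 was at least 2430-fold lower, with neither at more than 0.1 CPM in MC38. Galm, which encodes galactose mutarotase, was at least 1880-fold lower and the Rab exchange factor gene Rin3 at least 1830-fold lower.

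HOX genes, which record position along the body axis, were exchanged between the lines. Of 26 tested, 12 were higher in CT26, 10 lower and 4 not called. Of the HoxA genes, Hoxa9 had 22.9, 23.3 and 21.8 CPM in CT26, 0.151 and 0.0802 CPM in E0771 and 30.5 and 32.7 CPM in MC38. Hoxa5 (5.18, 3.86 and 3.46 CPM in CT26), Hoxa6, Hoxa7 and, from the HoxB cluster, Hoxb8 and Hoxb9 had no count in E0771, and all of these were detected in MC38. E0771 instead carried Hoxd9 (42.9 and 39.4 CPM), Hoxd10 (30.1 and 27.2 CPM), Hoxc10 (36.3 and 32.6 CPM) and Hoxb13 (8.45 and 8.58 CPM). None of these 4 had a count in CT26, which puts them at least 1500-fold, 1040-fold, 1250-fold and 310-fold lower there, and MC38 had all 4, between 5.26 and 16.5 CPM. Hoxa10 was not called, with 9.83, 10.4 and 10.0 CPM in CT26 and 7.54 and 8.98 CPM in E0771 (log2 0.26, adjusted p = 0.175). Posterior HOX genes were present in both lines, with Hoxa9 and Hoxb9 in CT26 and Hoxd9, Hoxd10, Hoxc10 and Hoxb13 in E0771. Apart from Hoxd9, the genes named for E0771 carry higher numbers than those named for CT26. Whether the exchange orders the lines along the body axis was not tested.

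**Figure D3:**
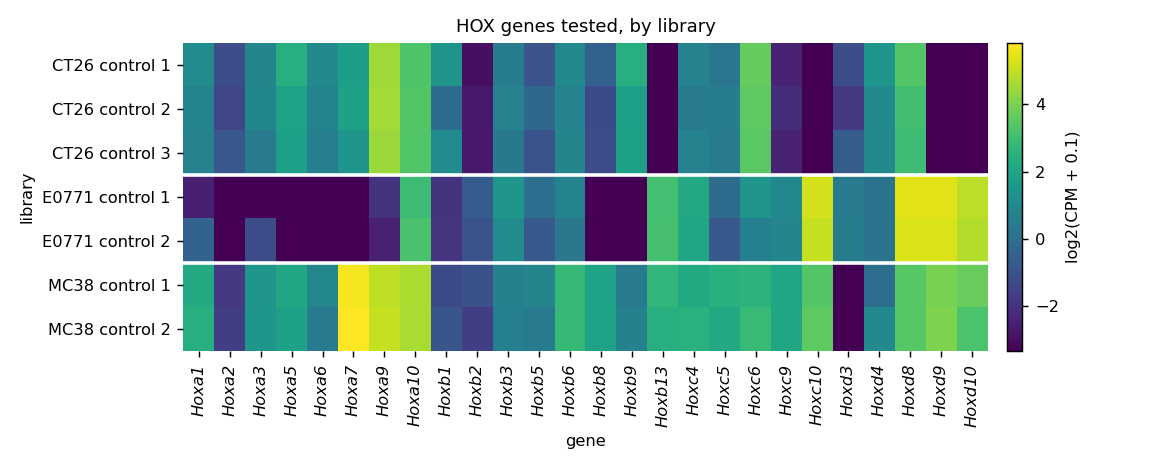
Level of each of the 26 tested HOX genes in every control agonist library, as log2(CPM + 0.1), with genes in cluster order from left to right and the lines separated by white bars (CT26 at the top, then E0771, then MC38). Hoxa5, Hoxa6, Hoxa7, Hoxb8 and Hoxb9 are dark only in E0771, and Hoxb13, Hoxc10, Hoxd9 and Hoxd10 are dark only in CT26.

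The extracellular matrix differed in composition. Of 40 collagen, laminin and other matrix genes tested, 19 were higher in CT26, 15 lower and 6 not called. Fn1, the fibronectin gene (chromosome 1, 71585520 to 71653200, minus strand), had 1601, 1257 and 1238 CPM in CT26, 0.226 and 0.16 CPM in E0771 and 794 and 838 CPM in MC38 (log2 12.72 for CT26 over E0771, SE 0.31, adjusted p = 6.42e-10). Col1a2, a chain of type I collagen (chromosome 6, 4504814 to 4541544, plus strand), had 1484, 1268 and 1167 CPM in CT26, 0.226 and 0.16 CPM in E0771 and 1.7 and 2.18 CPM in MC38 (log2 12.65, SE 0.30, adjusted p = 5.45e-10). Both genes were above 1000 CPM in every CT26 library and at trace levels in both E0771 libraries. The partner chain Col1a1 was at 176, 142 and 127 CPM in CT26 and 29.3 and 81.2 CPM in E0771 and was not called (log2 1.40, adjusted p = 0.0752). Col4a5 had 76.4, 74 and 72.9 CPM in CT26 and none in E0771 (at least 638-fold), and Col8a1 163, 167 and 171 CPM in CT26 and 0.151 and 0 CPM in E0771.

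E0771 had other matrix genes at high levels. Col6a1, a chain of type VI collagen, had 11.2, 11.2 and 9.6 CPM in CT26 and 571 and 1221 CPM in E0771 (log2 -6.42). Its partner Col6a2 had 0.553, 0.631 and 0.627 CPM in CT26 and 265 and 723 CPM in E0771 (log2 -9.69). In E0771 both chains were higher in library 2. Vcan (versican) had 1.51, 1.58 and 1.8 CPM in CT26 and 113 and 167 CPM in E0771, and Tnc (tenascin C) 0.145, 0.105 and 0.0273 CPM in CT26 and 9.88 and 14.4 CPM in E0771. Spp1, the osteopontin gene, was again higher in CT26, with 1813, 1963 and 2225 CPM against 47.1 and 21.2 CPM in E0771, and so was Thbs1, a gene of the matrix protein thrombospondin, with 160.4, 151 and 142 CPM against 0.0754 and 0.0802 CPM in E0771. The genes of this paragraph were picked after their values were seen.

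Proteases and integrins followed no single direction. Of 23 proteases and inhibitors, 11 were higher in CT26 and 8 lower, or 10 and 5 of 21 without CT26 replicate 2. Mmp13, a collagenase gene, had 2.38, 2.23 and 2.59 CPM in CT26 and none in E0771, while the gelatinase gene Mmp2 had 0.0788 to 0.136 CPM in CT26 and 5.43 and 6.98 CPM in E0771 and the urokinase gene Plau 0.669, 0.236 and 0.709 CPM in CT26 and 21.1 and 8.66 CPM in E0771. Integrin genes gave 6 higher and 5 lower of 15. Itgb3 was lower in CT26 (log2 -6.88) and Itgb8 and Itga2 higher, at least 5.81-fold and 4.31-fold. Itga1, a collagen receptor subunit, was at 1.95, 0.683 and 3.14 CPM in CT26 and 25.7 and 49.8 CPM in E0771 (log2 -4.33, adjusted p = 0.00638). Its call was lost without E0771 replicate 2 (adjusted p = 0.0619).

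The interferon pathway gave the most one-sided counts among the lists with at least 10 tested members. No type I or type III interferon gene passed the filter on low counts, and Ifnb1, the interferon beta gene, was at 0.0582, 0.105 and 0.273 CPM in CT26 and 0.0754 and 0 CPM in E0771. Of 65 antiviral interferon-stimulated genes tested, 59 were higher in CT26 and 2, Nt5c3 and the exonuclease gene Trex1, lower, with a median log2 fold change of 2.67, against 0.06 over all genes tested. Their median level was 54.5 CPM in CT26, 10.0 CPM in E0771 and 49.1 CPM in MC38. Of 19 interferon-inducible GTPase genes, 17 were higher in CT26 and 1 lower, with a median of 4.14. Without E0771 replicate 1 none of the 18 then tested was lower, and without CT26 replicate 2 none of 19. The summed level of the antiviral list was 6417 to 6892 CPM in CT26, 1709 and 1309 CPM in E0771, and 5968 and 5927 CPM in MC38. Within E0771, library 1 was above library 2 for 49 of the 65 antiviral genes. Without E0771 replicate 1 the antiviral list had 61 genes higher and 2 lower (median 2.60), and without E0771 replicate 2 it had 59 higher and 4 lower (median 2.34). Without CT26 replicate 2 only 1 gene of it was lower.

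Sensor genes were higher in CT26, and several genes that act after them were lower. Zbp1, a sensor of Z-form nucleic acid, had 46.1, 50.2 and 51.7 CPM in CT26, 0.226 and 0.401 CPM in E0771 and 22.2 and 21.7 CPM in MC38 (log2 7.26 for CT26 over E0771, SE 0.23, adjusted p = 2.34e-09). Ddx58, the gene of RIG-I itself, had 148, 142 and 160.4 CPM in CT26 and 63 and 34.3 CPM in E0771 (log2 1.59, SE 0.25, adjusted p = 0.0014). Ifih1, which encodes the related sensor MDA5, had 57.6, 53.2 and 56.6 CPM in CT26 and 22 and 13.6 CPM in E0771 (log2 1.62, adjusted p = 5.36e-05). For all 3 sensors the lowest CT26 library was above the highest E0771 library. Libraries of the 2 lines did not overlap for 79.9% of all genes tested. Tlr3, a sensor of double-stranded RNA in endosomes, was also higher (31.9, 31.4 and 33.7 CPM in CT26, 4.07 and 4.01 CPM in E0771).

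The adaptor gene Mavs was higher by a small amount, at 71.7, 73.6 and 73.7 CPM in CT26 and 53.9 and 52 CPM in E0771 (log2 0.43, adjusted p = 0.00307). Genes of the kinase TBK1 and the factor IRF3, which act just after MAVS and are made without a stimulus, were lower in CT26 (log2 -0.50 and -0.53), as were Traf3 (-0.77) and the TLR3 adaptor Ticam1 (-0.84). Irf7, the interferon-inducible factor, had 187, 194 and 185 CPM in CT26 and 13.8 and 7.86 CPM in E0771 (log2 4.08, SE 0.22, adjusted p = 4.41e-07), and the inducible kinase gene Ikbke was also higher (log2 2.45). In all, 11 of 16 RNA-sensing genes were higher in CT26 and 5 lower.

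Receptor genes did not separate the lines: Ifnar1, Ifnar2, Ifngr1 and Ifngr2 were not called (log2 -0.05, 0.28, 0.03 and 0.06). Jak2 was higher in CT26 (log2 1.95), and Jak1 and Tyk2, the kinases of the type I receptor, were lower (log2 -1.01 and -0.59). Stat2 and Irf9 were higher (log2 1.21 and 1.16). Stat3 was lower in CT26 (log2 -1.53), and Irf8, a factor of myeloid cells, had 0.494, 0.447 and 0.136 CPM in CT26 and 5.81 and 5.69 CPM in E0771. Usp18, the feedback inhibitor of the type I receptor, had 171, 186 and 206 CPM in CT26 and 27.5 and 13.7 CPM in E0771 (log2 3.15, adjusted p = 0.000199). Over the 19 genes of this signalling step, including IRF and SOCS family members, 7 were higher and 6 lower, near the shares over all genes tested.

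Among effectors, Isg15, the ubiquitin-like modifier, had 186, 212 and 233 CPM in CT26, 19.8 and 9.94 CPM in E0771 and 112 and 114 CPM in MC38 (log2 3.79 for CT26 over E0771, SE 0.30, adjusted p = 6.05e-05). Ifit1, which binds foreign RNA caps, had 71, 73.4 and 89.2 CPM in CT26, 15.2 and 8.98 CPM in E0771 and 75.3 and 73.7 CPM in MC38 (log2 2.65, SE 0.22, adjusted p = 1.48e-05). Each CT26 library was more than 4 times the higher E0771 library for both genes. Mx1, a GTPase that blocks virus replication, differed less, at 8.55, 10.4 and 9.65 CPM in CT26 and 4.53 and 2.81 CPM in E0771 (log2 1.34, adjusted p = 0.000522). The 4 genes of the list with the largest log2 fold changes were Ifi44l, with 10.8, 10.9 and 12.8 CPM in CT26 and none in E0771 (at least 98.7-fold), Ifitm1 (11.1, 14.6 and 13.6 CPM in CT26, 0 and 0.16 CPM in E0771), Phf11d (106, 105 and 127 CPM in CT26, 1.81 and 0.722 CPM in E0771) and Ifi27l2a (175, 223 and 231 CPM in CT26, 3.17 and 1.68 CPM in E0771). In MC38 these 4 genes were, in the same order, at 0.189 and 0 CPM, 31.4 and 29.9 CPM, 13.0 and 13.5 CPM, and 1.89 and 0.977 CPM. Phf11d has close relatives that could share its reads. Rsad2, the viperin gene, was an exception and was not called, at 17.9, 15.8 and 16.2 CPM in CT26 and 24.2 and 12.6 CPM in E0771.

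The GTPases of the GBP and IRG families, which attack pathogen vacuoles, were low in E0771. Tgtp2 had 16.8, 17.6 and 20.4 CPM in CT26 and none in E0771 (at least 157-fold). Gbp2b, whose protein is also known as GBP1, had 34.1, 33.2 and 39 CPM in CT26 and 0.0754 and 0 CPM in E0771, which is 1 read in E0771 and a ratio of 912 (exact 95% interval 164 to 36000), and MC38 had 0.0631 and 0 CPM. Gbp11 had 2.12, 2.92 and 3.33 CPM in CT26 and none in E0771. Gvin1 went the other way, with none in CT26 and 4.75 and 0.641 CPM in E0771 (adjusted p = 0.0248), and lost its call without CT26 replicate 2 (adjusted p = 0.0764) and without the filter on low counts (0.109). Members of these families resemble each other, so the split among single genes is uncertain, while the sum over the list was 667 to 762 CPM in CT26 and 104 and 66.6 CPM in E0771.

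Promoters of 4 of these genes are shown because they carry the motif of the interferon-stimulated response element and their genes were higher in CT26. Sequences are from RefSeq on build GRCm38.p6, 250 bases before to 50 bases after the start of transcription, written 5′ to 3′ on the strand of the gene. Capitals mark each match to TTTC, any 2 bases and TTTC, or to the same motif on the other strand, GAAA, any 2 bases and GAAA.
Isg15 (chr4:156200769-156201068, minus strand): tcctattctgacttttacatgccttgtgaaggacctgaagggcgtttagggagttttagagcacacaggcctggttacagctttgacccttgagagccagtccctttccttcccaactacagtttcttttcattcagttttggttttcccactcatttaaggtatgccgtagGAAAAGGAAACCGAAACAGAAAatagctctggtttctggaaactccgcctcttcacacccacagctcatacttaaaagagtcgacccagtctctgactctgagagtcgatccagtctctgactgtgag
Ifit1 (chr19:34640639-34640938, plus strand): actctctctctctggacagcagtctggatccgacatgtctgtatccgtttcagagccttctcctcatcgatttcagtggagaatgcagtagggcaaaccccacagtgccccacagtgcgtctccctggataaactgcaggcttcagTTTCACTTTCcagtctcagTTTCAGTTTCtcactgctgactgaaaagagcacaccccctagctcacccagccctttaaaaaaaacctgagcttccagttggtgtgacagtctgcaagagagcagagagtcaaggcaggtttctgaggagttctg
Gbp2b (chr3:142594597-142594896, plus strand): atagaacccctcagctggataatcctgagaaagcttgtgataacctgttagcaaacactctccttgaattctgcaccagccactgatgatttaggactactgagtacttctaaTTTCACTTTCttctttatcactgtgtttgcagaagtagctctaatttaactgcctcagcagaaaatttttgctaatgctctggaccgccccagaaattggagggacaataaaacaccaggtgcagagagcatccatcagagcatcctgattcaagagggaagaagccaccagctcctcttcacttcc
Tgtp2 (chr11:49064163-49064462, minus strand): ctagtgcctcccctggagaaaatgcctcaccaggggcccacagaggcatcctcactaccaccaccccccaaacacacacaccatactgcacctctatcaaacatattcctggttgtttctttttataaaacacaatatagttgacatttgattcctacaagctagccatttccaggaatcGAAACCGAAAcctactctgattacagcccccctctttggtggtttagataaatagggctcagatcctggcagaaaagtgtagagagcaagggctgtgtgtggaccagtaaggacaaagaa
The Isg15 window held 3 overlapping matches beginning 78, 72 and 66 bases before the start, and Ifit1 had 2, beginning 104 and 85 bases before it. Gbp2b had 1 match 137 bases before the start and Tgtp2 had 1 at 70 bases. The promoter of Irf7, also higher in CT26, was searched as well and held 0 matches.

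Across all genes tested, promoters with this motif made up a larger share of the genes higher in CT26 than of those lower. Promoters were found by symbol for 10001 of the 12845 protein-coding genes tested. The motif was present in 396 of these (3.96%), in 135 of 1790 genes at least 2-fold higher in CT26 (7.54%) and in 40 of 1647 genes at least 2-fold lower (2.43%). Genes that were not called had it in 3.45%, and all 27025 genes of the promoter table in 3.99%. With every gene of the immune lists left out, the share among genes at least 2-fold higher was 5.18% (87 of 1679). In the antiviral list 25 of 52 genes with a promoter had it, and in the GTPase list 10 of 11. Cytosolic DNA sensing had it in 5 of 11, MHC class I in 5 of 22 and RNA sensing in 3 of 14. In the 250 bases before the start alone, RNA sensing had it in 0 of 14. The shorter gamma-activated site TTCNNNGAA, which is its own reverse complement, was present in 8.94% of the higher, 8.44% of the lower and 8.59% of all tested genes. It was found in 6 of 52 promoters of the antiviral list and in 6 of 11 of the GTPase list. Matches of both motifs were counted independently and may overlap. A match is a description of the letters and not evidence of binding, and no test was made.

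Cytosolic DNA sensing was split within the list. The sensor gene Cgas was higher in CT26 (log2 2.09), and its adaptor gene Tmem173, which encodes STING, was lower (30.9, 36 and 36.9 CPM in CT26, 47.5 and 65.3 CPM in E0771, log2 -0.73, adjusted p = 0.00113). The Ifi200 family members Ifi203, Ifi204, Ifi207 and Mndal were higher in CT26 (log2 5.18, 4.0, 7.92 and 3.83), Ifi209 was lower (log2 -3.67) and so was the inflammasome sensor gene Aim2 (log2 -0.50). This family differs between mouse strains and shares reads. Over the list, 8 of 14 genes were higher and 5 lower.

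**Figure D4:**
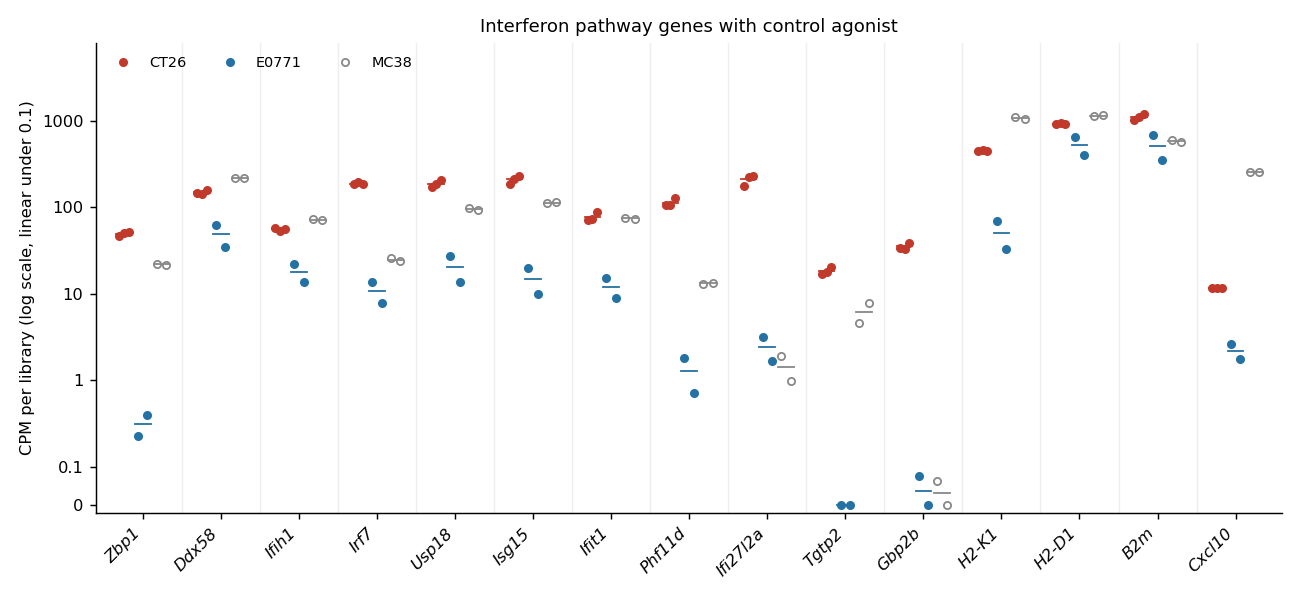
Levels of interferon pathway genes in every control agonist library (CPM, log scale, linear under 0.1; points are libraries, bars their means; CT26 red, E0771 blue, MC38 open grey). For each gene shown the 3 CT26 libraries lie above both E0771 libraries, from 1030 to 1210 against 684 and 351 CPM for B2m to 46.1 to 51.7 against 0.226 and 0.401 CPM for Zbp1. Libraries of the 2 lines did not overlap for 79.9% of all genes tested. The genes were picked with earlier results known. Rsad2, Nlrc5 and Ccl5, whose libraries overlap, and Tbk1, Irf3, Jak1 and Tyk2, which were lower in CT26, are not shown.

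Antigen presentation on MHC class I was higher in CT26 in 23 of 29 genes tested, with 1 lower and a median log2 fold change of 1.65. Without E0771 replicate 2 it had 22 higher and 3 lower. H2-K1, a classical class I heavy chain, had 450.1, 460.0 and 443 CPM in CT26, 68.5 and 32.8 CPM in E0771 and 1092 and 1055 CPM in MC38 (log2 3.12 for CT26 over E0771, SE 0.33, adjusted p = 0.000389). H2-D1 differed less, with 921, 943 and 909.9 CPM in CT26 and 656 and 397 CPM in E0771 (log2 0.78, adjusted p = 0.00664). The light chain gene B2m had 1032, 1108 and 1206 CPM in CT26 and 684 and 351 CPM in E0771 (log2 1.07, adjusted p = 0.0109). The B2m call was lost with an offset for GC content and length (log2 0.28, adjusted p = 0.359). CT26 carries the BALB/c alleles of the H2 region and the reference is C57BL/6, so heavy chain reads can be missed or moved to relatives. One relative, H2-Q4, had 168, 167 and 156 CPM in CT26 and 0.453 and 0 CPM in E0771, and another, H2-Q2, had 64.2, 65.4 and 58.6 CPM in CT26 and none in E0771. MC38 had 64.7 and 63.1 CPM of H2-Q4 and no count of H2-Q2.

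Genes that make and load the peptides were compared as well. The immunoproteasome genes Psmb8, Psmb9 and Psmb10 were higher in CT26 (log2 2.37, 2.23 and 1.65), as were the activator genes Psme1 and Psme2 (1.38 and 1.96). The peptide transporter gene Tap1 was at 73.5, 68.1 and 62.3 CPM in CT26 and 58.9 and 38.7 CPM in E0771 (log2 0.45, adjusted p = 0.047), a call lost without CT26 replicate 1, 2 or 3 (adjusted p = 0.128, 0.0757 and 0.0565), without E0771 replicate 2 (log2 0.16, adjusted p = 0.285) and with libraries thinned to equal depth (0.0585). Nlrc5, the transactivator of class I genes, was not called (23.9, 21.7 and 19.5 CPM in CT26, 29.4 and 21.2 CPM in E0771, log2 -0.25, adjusted p = 0.185). Without E0771 replicate 1 its log2 fold change was 0.0044, and without E0771 replicate 2 it was called, at -0.48 (adjusted p = 0.00712). Of 3 MHC class II genes tested, both peptide exchange genes were lower in CT26. H2-DMb1 had 0 to 0.0291 CPM in CT26 and 10.9 and 10.8 CPM in E0771, and H2-DMa 1.13 to 1.43 CPM in CT26 and 13.4 and 11 CPM in E0771.

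Signals to immune cells differed gene by gene. Among 10 chemokine genes tested, 5 were higher in CT26 and 3 lower. Cxcl10, which attracts T cells, had 11.5, 11.8 and 11.8 CPM in CT26, 2.64 and 1.76 CPM in E0771 and 257 and 257 CPM in MC38 (log2 2.37 for CT26 over E0771, SE 0.22, adjusted p = 5.3e-06). Ccl2, which attracts monocytes, was the reverse, at 0.349, 0.71 and 0.491 CPM in CT26 and 27.6 and 6.41 CPM in E0771 (log2 -5.06, adjusted p = 0.00385), and so was Cx3cl1 (log2 -5.14). Ccl5 was not called (2.21, 1.81 and 1.5 CPM in CT26, 2.72 and 1.84 CPM in E0771, log2 -0.34, adjusted p = 0.368), but was called lower with an offset for GC content and length (log2 -1.17, adjusted p = 0.0146).

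Of 31 cytokine and NF-kB target genes, 14 were higher in CT26 and 9 lower, or 16 and 5 without E0771 replicate 1. Ptgs2, the gene of the prostaglandin enzyme COX-2, had 279.9, 282 and 349.8 CPM in CT26, 0.604 and 0.16 CPM in E0771 and 156 and 162 CPM in MC38 (log2 9.56, adjusted p = 2.9e-09). The adhesion gene Vcam1 had 142, 149.6 and 161 CPM in CT26 and 0.453 and 0.24 CPM in E0771, and the cytokine gene Lif 22.2, 24.9 and 22.3 CPM in CT26 and 2.87 and 0.641 CPM in E0771. Tnf had no count in CT26 and 1.96 and 0.802 CPM in E0771. Transforming growth factor genes Tgfb1, Tgfb2 and Tgfb3 were all lower in CT26 (log2 -2.53, -2.64 and -1.96), with Tgfb1 at 19.1, 16.9 and 16.1 CPM in CT26 and 111 and 86 CPM in E0771.

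Checkpoint and NK cell ligands included several genes that 1 line lacked, with 8 higher and 4 lower of 14 checkpoint genes and 4 higher and 2 lower of 7 NK ligand genes. Cd274, the PD-L1 gene, had 6.05, 5.97 and 6.35 CPM in CT26, 4 and 2.25 CPM in E0771 and 22.6 and 22 CPM in MC38 (log2 0.93 for CT26 over E0771, SE 0.26, adjusted p = 0.00904). Cd80, a costimulatory ligand, had 11.3, 12.2 and 13.7 CPM in CT26 and 0.151 and 0 CPM in E0771, and Tnfsf9, the 4-1BB ligand gene, 7.91, 8.04 and 7.77 CPM in CT26 and none in E0771. Nt5e, the gene of the adenosine-producing enzyme CD73, had 0.0291, 0 and 0 CPM in CT26 and 35.7 and 43.8 CPM in E0771, and Vsir, which encodes VISTA, 0.262, 0.158 and 0.3 CPM in CT26 and 27.1 and 50.9 CPM in E0771. Ligands of the activating receptor NKG2D were exchanged: Raet1d had no count in CT26 and 38.3 and 41.5 CPM in E0771, Raet1e likewise had none in CT26 and 35.7 and 38.8 CPM in E0771, whereas H60b had 2.06, 2.79 and 3.71 CPM in CT26 and none in E0771. The Raet1 genes resemble each other and differ between strains. Cadm1, an adhesion gene whose product binds the NK receptor CRTAM, had 262, 249 and 257 CPM in CT26, 0 and 0.0802 CPM in E0771 and 3.98 and 4.88 CPM in MC38.

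After the RIG-I agonist, the line contrast was measured again in 5 libraries that the control comparison does not use. Of 14565 genes tested there, 5257 (36.1%) were higher in CT26 and 4856 (33.3%) lower. Genes called higher in both numbered 4283, which is 81.5% of those called after the RIG-I agonist and 83.7% of those called after the control agonist, and genes called lower in both 4039 (83.2% and 87.4%). Of the genes higher with the control agonist 22 were called lower after the RIG-I agonist, and of those lower with the control agonist 10 were called higher.

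The interferon lists differed less between the lines after the RIG-I agonist. Of 66 antiviral genes, 44 were higher in CT26 and 9 lower, with a median log2 fold change of 0.84, against 2.67 with the control agonist. The GTPase list had 13 higher and 2 lower of 19 (median 1.27, against 4.14), MHC class I 19 and 3 of 31 (median 1.01, against 1.65), and RNA sensing 8 and 4 of 16 (median 0.31, against 1.15). Cytosolic DNA sensing had 6 and 6 of 14 (median 0.00, against 1.40). The difference between agonists was not tested here. Ifit1 was at 608, 638 and 655 CPM in CT26 and 531 and 623 CPM in E0771 after the RIG-I agonist, where it was not called (log2 0.12, adjusted p = 0.281). Isg15 was called there as well, at 885, 946 and 883 CPM in CT26 and 424 and 427 CPM in E0771 (log2 1.07, adjusted p = 5.94e-05), and Zbp1 was at 531, 527 and 508 CPM in CT26 and 96.6 and 115 CPM in E0771 (log2 2.28). Gbp2b had 424, 438 and 429 CPM in CT26 and no count in either E0771 library after the RIG-I agonist. Outside the interferon pathway medians lay on either side of their control values. The cell cycle list had a median of 0.37, against 0.22 with the control agonist, and the matrix list 1.88, against 0.88. Glycolysis and hypoxia had a median of -0.29 with 7 genes higher and 14 lower, against 0.27 with 14 higher and 8 lower, and the cytokine list a median of -0.12, against 0.46. HOX genes had a median of 0.28, against 0.59, and mitochondrially encoded genes 0.74, against -0.46. Each of these control medians moved by over 1.5 times without 1 of the E0771 libraries.

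**Figure D5:**
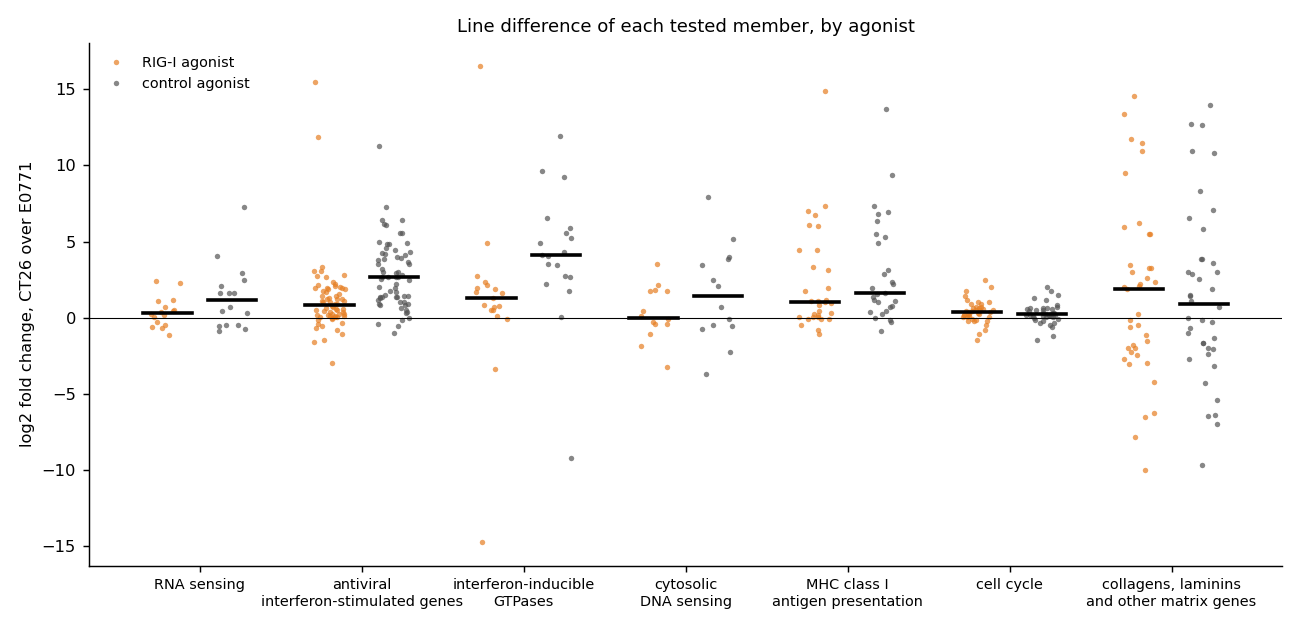
Log2 fold change of CT26 over E0771 for each tested member of 7 gene lists, after the RIG-I agonist (orange, left in each pair) and the control agonist (grey, right); black bars are medians. The antiviral median is 0.84 after the RIG-I agonist and 2.67 after the control agonist, and points of genes without a count in 1 line depend on the prior count of 0.125.

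Among cell death genes, 1 needed for necroptosis was nearly absent from CT26. Ripk3, the kinase gene needed for necroptosis (chromosome 14, 55784995 to 55788865, minus strand), had 0, 0.0526 and 0 CPM in CT26, 53.7 and 54.3 CPM in E0771 and 18.3 and 20.5 CPM in MC38 (ratio E0771 over CT26 2950, exact 95% interval 814 to 24300). CT26 had reads for the sensor Zbp1 and the effector gene Mlkl (109, 112 and 113 CPM) and almost none for the kinase between them, while E0771 had Ripk3 and Mlkl (111 and 75.5 CPM) and little Zbp1. Of 33 cell death genes tested, 17 were higher in CT26, 7 lower and 9 not called. The pyroptosis genes Casp1 and Gsdmd were higher in CT26 (log2 3.17 and 2.81), Pmaip1, the NOXA gene, was lower (0 to 0.0872 CPM in CT26, 3.7 and 3.53 CPM in E0771), and Casp8, Mcl1 and Ripk1 were not called (log2 0.13, 0.05 and 0.17).

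Tumour suppressor and oncogene transcripts were also compared. Cdkn2a and Cdkn2b, neighbouring genes of cell cycle inhibitors, had no count in any library of either line, while MC38 had 2.84 and 3.61 CPM of Cdkn2a and 6.82 and 8.04 CPM of Cdkn2b. Myc was lower in CT26, at 132, 126 and 122 CPM in CT26 and 434 and 448 CPM in E0771 (log2 -1.83, SE 0.10, adjusted p = 1.21e-07). MC38 had 84.7 and 88.4 CPM. Trp53 was not called (log2 -0.27, adjusted p = 0.0582). Over the list, 7 of 28 genes were higher and 12 lower.

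Targets of p53 gave 13 higher and 5 lower of 24 (median 0.53). Cdkn1a, the p21 gene, had 233, 226 and 222 CPM in CT26 and 55.8 and 51.4 CPM in E0771 (log2 2.05, adjusted p = 9.67e-08), and the p53-induced receptor gene Eda2r was also higher (log2 3.43). Gdf15, a stress cytokine gene, went the other way, at 0.0291 to 0.0788 CPM in CT26 and 20.6 and 27.1 CPM in E0771 (log2 -8.67).

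Of 40 cell cycle genes, 17 were higher in CT26 and 6 lower, with a median of 0.22 (0.33 without E0771 replicate 1). Mki67, the marker of dividing cells, had 609, 629 and 615 CPM in CT26 and 162 and 141 CPM in E0771 (log2 2.0, SE 0.12, adjusted p = 2.9e-07), and Pcna 583, 676 and 709 CPM in CT26 and 208 and 179 CPM in E0771. Top2a and Ccnb1 were not called (log2 0.19 and 0.12), and E2f2 was lower (log2 -1.44).

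Of 28 growth factor receptor genes tested, 9 were higher in CT26 and 13 lower. Egfr had 0.233, 0.394 and 0.191 CPM in CT26 and 13.6 and 11.7 CPM in E0771, and Fgfr1 24.6, 21.1 and 19.6 CPM in CT26 and 169.9 and 139 CPM in E0771. Ret had 3.58, 2.52 and 2.45 CPM in CT26 and none in E0771, and the ephrin receptor gene Ephb2 42, 33.7 and 31.5 CPM in CT26 and 0.226 and 0.722 CPM in E0771. In the Wnt pathway, 8 of 14 genes were higher in CT26 and 5 lower: the receptor gene Fzd7 had 36.6, 32.3 and 28.3 CPM in CT26 and none in E0771, and the ligand gene Wnt7b 0.0291, 0.105 and 0.0818 CPM in CT26 and 111 and 127 CPM in E0771. The nuclear factors were exchanged as well, with Lef1 at 10.6, 11.3 and 8.84 CPM in CT26 and 0.0754 and 0 CPM in E0771, and Tcf7 at 0.0582, 0.0526 and 0 CPM in CT26 and 7.39 and 6.01 CPM in E0771.

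In metabolism, glycolysis and hypoxia genes gave 14 higher and 8 lower of 32. Hypoxia-response genes lay on both sides. Egln3, a prolyl hydroxylase gene, had 0, 0.0263 and 0 CPM in CT26 and 106 and 77.5 CPM in E0771, and the glucose transporter gene Slc2a3 0.698, 0.999 and 0.464 CPM in CT26 and 31.8 and 37 CPM in E0771. Car9 had 17.6, 7.25 and 16.2 CPM in CT26 and 0.453 and 0.641 CPM in E0771 (log2 4.61, adjusted p = 0.000815). Gapdh was not called (log2 0.11).

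Nuclear-encoded oxidative phosphorylation genes gave 20 higher and 3 lower of 35 (median 0.31), led by the short genes Ndufa1, Ndufa2, Ndufb3 and Cox5b (log2 1.64, 1.51, 1.45 and 1.33). Gene length moved with this result: over all genes tested, the shortest 20% had a median log2 fold change of 0.63 and the longest 20% -0.11. All genes tested included 1331 pseudogenes, 55.0% of them higher and 9.17% lower in CT26. Neither this trend nor the offset for length was computed on protein-coding genes alone, and the part of pseudogenes in them was not tested. With an offset for GC content and length the list had 14 higher and 10 lower (median 0.03). With the replicate block it had 13 higher and 1 lower, without CT26 replicate 2 it also had 13 and 1, and without CT26 replicate 3 it had 16 and 1.

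Counts for mitochondrially encoded genes depended on the E0771 library. Of 13, none was higher in CT26 and 4 were lower, led by mt-Atp6 at 849, 1166 and 1099 CPM in CT26 and 4031 and 12161 CPM in E0771 (log2 -2.99, SE 0.49, adjusted p = 0.00404). Without E0771 replicate 1 the list had 0 higher and 9 lower, and without E0771 replicate 2 it had 6 higher and 5 lower. Without CT26 replicate 2 it had 2 lower. For mt-Atp6 every E0771 library exceeded every CT26 library.

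Cholesterol synthesis also depended on the E0771 library. With both libraries 1 gene of 25 was higher in CT26 and 5 were lower, without E0771 replicate 1 16 were higher and 6 lower, and without E0771 replicate 2 4 were higher and 18 lower. Dhcr7 was called lower (log2 -1.62, adjusted p = 0.0282), but not without CT26 replicate 2 or 3 (adjusted p = 0.123 and 0.0714), with the replicate block (0.104) or without the filter on low counts (0.0847).

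Among detoxification genes, 9 were higher and 6 lower of 24. Nqo1, a quinone reductase gene of the NRF2 response, had 1.54, 1.79 and 2.59 CPM in CT26, 54.5 and 37.5 CPM in E0771 and 97.5 and 91.5 CPM in MC38 (log2 -4.57, adjusted p = 4.8e-07), and Aldh1a1, a retinal dehydrogenase gene, 2.15, 2.76 and 3.05 CPM in CT26 and none in E0771. Of 26 MYC and ribosome biogenesis genes, 10 were higher and 8 lower, near the shares over all genes. Nop56, a nucleolar protein gene, was higher (log2 1.25), and Polr1b and Cad were lower (log2 -1.34 and -1.26).

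Immediate early genes gave 7 higher and 6 lower of 20, but 7 and 10 without E0771 replicate 2. Egr1, a growth-factor-induced transcription factor gene, had 72.5, 68.7 and 70.1 CPM in CT26, 0.604 and 1.2 CPM in E0771 and 38.9 and 38.9 CPM in MC38 (log2 6.26, SE 0.21, adjusted p = 2.93e-09), while the stress factor gene Atf3 had 0 to 0.0818 CPM in CT26 and 11.4 and 7.54 CPM in E0771. Fos and Jun were not called (log2 -0.18 and -0.22). Fosb was called higher (adjusted p = 0.0418), but under 6 of the 17 alternatives it was not (adjusted p 0.0519 to 0.148). Chaperone and ER stress genes gave 7 higher and 7 lower of 19. Hspa8, a cytosolic chaperone gene, was lower in CT26 (1320.3, 1544 and 1551 CPM in CT26, 5093 and 5393 CPM in E0771) and Hspa5, the ER chaperone BiP, higher (1402, 1464 and 1585 CPM in CT26, 596 and 552 CPM in E0771). Replication-dependent histone genes, whose transcripts lack poly(A) tails, gave 1 higher and 4 lower of 16 (2 and 5 of 21 without E0771 replicate 2), and the higher one was Hist1h4i, with 0.96, 0.893 and 1.36 CPM in CT26 and none in E0771.

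Leukocyte and endothelial markers, of cells that a culture should not hold, were low. Ptprc, which encodes CD45, was at 0.145 to 0.218 CPM in CT26 and 0.377 and 0 CPM in E0771, and 5 of 22 leukocyte genes passed the filter, with a summed level of 24.6 to 27.4 CPM in CT26 and 20.2 and 16.5 CPM in E0771. Lyz2 and S100a8 were lower in CT26 and Cd14 higher (20.9 to 22.8 CPM in CT26, 2.11 and 1.76 CPM in E0771). Pecam1, an endothelial gene, was at 0.873, 1.5 and 2.21 CPM in CT26 and 11.7 and 7.06 CPM in E0771, and all 3 endothelial genes that passed the filter (of 10) were lower in CT26, with a summed level of 1.57 to 2.78 CPM in CT26 and 15.9 and 8.98 CPM in E0771. Fibroblast and adipocyte genes were not low, with a summed level over the 10 tested of 274 to 331 CPM in CT26 and 223 and 299 CPM in E0771. The part of any such cells in the results was not tested. The endothelial call for Esam (adjusted p = 0.0122) was lost without E0771 replicate 1 (adjusted p = 0.201), and that of the fibroblast gene Fap (adjusted p = 0.0224) was lost there too (0.139). Of 10 fibroblast and adipocyte genes tested, 5 were higher in CT26 and 2 lower, or 3 and 1 of 8 without CT26 replicate 1 or 3, 4 and 1 of 8 without CT26 replicate 2, and 5 and 1 without E0771 replicate 2. The luminal gene Gata3 was called higher in CT26 (adjusted p = 0.046) and lost this call under 6 alternatives (adjusted p 0.0602 to 0.253). Actb, the actin gene often used as a reference, was not called (log2 -0.15, adjusted p = 0.486), but without E0771 replicate 2 it was lower in CT26 (log2 -0.43, adjusted p = 0.00648) and without E0771 replicate 1 its sign was positive (log2 0.18, adjusted p = 0.237).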

How the data were processed

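RNA-seq of the CT26 and E0771 tumour lines was taken from estimated counts per gene that the authors deposited, not scaled to depth, in 1 table for each line. Salmon, DESeq2 and the build GRCm38 appear in the submitters' processing notes, which give them no roles, and versions and filters are not given in the sources used here. Tables were joined by gene identifier and rounded to whole numbers. Of 34866 identifiers, 32574 matched GENCODE M21 with their version and 34582 without it, 284 have no name, and 26 symbols stand for more than 1 identifier. Coordinates are from that annotation. Samples were grouped by their titles.

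The contrast of 3 CT26 and 2 E0771 control libraries was fitted with edgeR 4.0.16 in R 4.3.3, with quasi-likelihood, TMM scaling and genes kept by filterByExpr (minimum count 10), and p-values were adjusted by Benjamini-Hochberg over 14262 genes. The same fit was made on the RIG-I agonist libraries. The SE is the absolute log2 fold change over the square root of F. The prior count of 0.125 sets fitted values of genes without reads. CPM levels use TMM factors over all 14 libraries, which shifts them by 0.03 on the log2 scale against the fit. The biological coefficient of variation was 0.129 with 3 residual degrees of freedom. DESeq2 1.42.0, limma 3.58.1 (voom with quality weights) and other filters, scalings and sample sets were alternatives. Promoter sequences are RefSeq's on GRCm38.p6, matched by symbol.

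Some genes that the naming rule selects are not reported here. The groups, gene lists and named genes were chosen with earlier results of these data known. Named by rule were the 10 protein-coding genes with the largest fold change in each direction (called, libraries not overlapping, mean log2 CPM of at least 1), the 4 called members with the largest absolute change in each of 40 lists, the tested member of each list closest to 0 where a contrast was needed, and a fixed set of markers, sensors, MHC genes and controls. Chosen after their values were seen were Aim2, Car9, Casp1, Casp8, Ccl2, Ccnb1, Cdkn1a, Cgas, Col1a1, Col6a1, Col6a2, Egfr, Fgfr1, Fos, Gapdh, Grhl2, Gsdmd, Hoxa10, Hoxa5, Hoxa6, Hoxa7, Hoxa9, Hoxb8, Hoxb9, Ifi209, Ifnar1, Ifnar2, Ifngr1, Ifngr2, Irf3, Irf9, Jak1, Jun, Jup, Mcl1, Mlkl, Nt5c3, Ocln, Pkp2, Pkp3, Psmb10, Psmb8, Psmb9, Psme1, Psme2, Ripk1, Rsad2, Snai1, Spp1, Stat2, Stat3, Tbk1, Tcf7, Tgfb1, Tgfb2, Tgfb3, Thbs1, Ticam1, Tmem173, Tnc, Top2a, Traf3, Trex1, Trp53, Twist2, Tyk2, Vcan and Zeb2.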

Additional observations from a re-analysis of the deposited data

Results flagged for a closer look

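Tap1, a subunit of the peptide transporter that loads MHC class I, had opposite signs in the line contrasts of both agonists. CT26 over E0771 was -0.49 on the log2 scale after the RIG-I agonist (adjusted p = 0.000638, edgeR) and 0.45 with the control agonist. In each contrast all CT26 libraries lay on the same side of both E0771 libraries. The difference between the contrasts was not tested. With the control agonist the Tap1 call was lost without any single CT26 library and without E0771 replicate 2, as given above.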

How the results depend on the processing

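In the control agonist comparison, the counts of genes called over all genes tested moved by less than 1.5 times under the 17 alternatives. Counts within single lists moved more, as given with those lists. Leaving out 1 library gave 4377 to 5237 genes higher and 3928 to 4586 lower in CT26 (2808 to 3222 and 2141 to 2249 with at least a 2-fold difference), and 4385 to 5952 higher and 4055 to 5371 lower after the RIG-I agonist. Within the gene lists it gave 329 to 415 higher and 162 to 222 lower. Where 1 E0771 library remained, it was assumed to vary like the CT26 libraries. Not every alternative tested all of the 181 named genes tested in the main fit. Of these, 165 stood on the same side of the threshold in every alternative that tested them. Somewhere 12 lost their call and 4 gained one, and 2 changed sign without E0771 replicate 1. These were Actb (log2 0.18, adjusted p = 0.237) and Nlrc5 (log2 0.0044, adjusted p = 0.982), and neither was called with all libraries, whereas without E0771 replicate 2 both were lower in CT26 (log2 -0.43 and -0.48).

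Replicate numbers are shared by both lines, and the labels do not say that they pair the libraries. Deviations of same-numbered libraries correlated by 0.0212 and 0.0138. Deviations of the 2 E0771 libraries from their mean mirror each other, so these values cannot decide whether libraries were paired. With the replicate block 8410 genes were called, 8322 of them among the 9740 called without it, and 8316 were called after the RIG-I agonist. An offset for GC content and length put the share of higher calls at 49.5%, against 52.6%. Searching only the 250 bases before the start, 3.4% of promoters held the interferon-stimulated motif and 7.45% the gamma-activated site, and 6.31% of genes at least 2-fold higher in CT26 held the first. At the E0771 depth, no count in either library still allows a level of up to 0.117 CPM. The cause of these changes was not tested.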

Other observations

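Some of the genes that 1 line lacked were neighbours. Among protein-coding genes called, below 0.1 CPM in every library of 1 line and at 1 CPM or more in every library of the other, CT26 lacked 251, of which 38 (15.1%) stood in 17 runs of adjacent tested genes. The longest run held 5 genes of the reproductive homeobox cluster on the X chromosome, Rhox1, Rhox2d, Rhox2e, Rhox2g and Rhox2h, which resemble each other and could share reads. Hoxd9 and Hoxd10 form a shorter run. E0771 lacked 358 genes, of which 58 (16.2%) stood in 27 runs of at most 3 genes. Hoxa5, Hoxa6 and Hoxa7 are one of these. Another, Pcdh7 and Arap2, spans positions 57717967 to 62766159 on chromosome 5, so genes of a run can lie far apart. How often tested genes in general would stand in such runs was not measured.

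Calls were spread unevenly over chromosomes. On chromosome 11, 52.0% of tested protein-coding genes were lower in CT26 (median log2 fold change -0.39), against 34.9% of all protein-coding genes tested. On chromosome 1, 47.2% were higher (median 0.34), against 33.8%. In windows of 50 adjacent tested protein-coding genes, the highest median was 1.55, on chromosome 7 (102441695 to 105744361), and the lowest -1.07, on chromosome 8 (119666365 to 124345722). Neither copy number nor strain differences in alignment were measured.

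Pseudogenes were mostly higher in CT26, with 732 higher (55.0%) and 122 lower (9.17%) of 1331 tested, whereas protein-coding genes gave 4346 higher (33.8%) and 4482 lower (34.9%) of 12845. The share of counts on pseudogenes was 5.98% to 7.15% in CT26 and 2.82% to 3.03% in E0771. In MC38 it was 2.01% to 2.12%. The part of depth, read length or strain in this was not tested.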
